A study of Mus musculus with 46 samples.

Results

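The matrix proteases and their inhibitors examined here were the mouse genes of the MMP, TIMP and ADAMTS families, taken by a rule on the symbol. Earlier results of these data were known when the families were chosen. The rule took 46 of the 37108 genes in the gene table (23 Mmp, 4 Timp and 19 Adamts genes) and the same 46 of the 35976 genes in the transcript table of the iPSC summed by symbol. The study reprogrammed mouse embryonic fibroblasts (MEF), taken from embryos of OG2 mice, which carry an Oct4-GFP reporter, crossed to 129 mice, by retroviral Oct4 with a form of Nanog. In the labels' NanogN70, called NanogBiD in the study, Nanog carried the BRG1-interacting domain of SS18 at its N-terminus, and the other form, native Nanog, was unmodified. Both combinations were sequenced on 8 days between D0, which follows 2 rounds of infection, and D12, with 2 libraries per combination and day except for 1 of NanogN70 at D8. The cells were kept in iCD3 medium and from about D7 in N2B27 with 2i and LIF. The references were 2 MEF libraries and 1 library of mouse embryonic stem cells labelled OG2 (mES), and a separate table held 12 established iPSC libraries, 6 per combination, with MEF and mES beside them. Separate cultures are not stated for the libraries of a group, so p-values measure only the spread between these libraries, which may be technical.

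MMPs are zinc-dependent proteases, made as inactive precursors, that cut collagens, proteoglycans and other matrix proteins. TIMPs block the active site of MMPs and of some ADAMTS enzymes, and TIMP2 also takes part in the activation of proMMP2 by the membrane protease MMP14. ADAMTS enzymes are secreted proteases with thrombospondin repeats that trim procollagens or cut proteoglycans such as versican and aggrecan, and fibroblasts are a major source of many of these proteins.

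Levels are given in FPKM, which is per length of gene model, and differences in means of log2(FPKM + 1), which understate the change of low genes. A call needed an adjusted p under 0.05 (limma, Benjamini-Hochberg) together with a log2 difference of 1 or more in either direction. Bulk RNA cannot tell fewer cells of a type from less RNA per cell. Relative depth ranged from 0.871 to 1.10 up to D7. From D8 on it was 0.810 to 1.02 for the 5 libraries of NanogN70 and 1.85 to 3.18 for the 6 of native Nanog, so there the depth and the combination cannot be told apart. The labelled MEF held all 10 fibroblast markers at 1 FPKM or more, and mES held 4 of them, with Col3a1, Prrx1 and Twist2 listed at 0. Among the iPSC, NanogN70 iPSC1 sample 9 stood apart, with a fibroblast marker sum of 2246 FPKM against 237 to 880 in the other 11, and the iPSC results are given with and without it.

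Of the 46 members, 33 passed the filter of 1 FPKM in at least 2 libraries and were tested in the time course, and 13 were not tested. The 30 members named below with values were the 4 Timp genes and those that reached a group mean of 5 FPKM or were called between the combinations. The other 16 (Mmp1a, Mmp1b, Mmp7, Mmp8, Mmp9, Mmp20, Mmp21, Mmp25, Mmp27, Adamts3, Adamts13, Adamts16, Adamts17, Adamts18, Adamts19 and Adamts20) had highest group means from 0.0357 FPKM for Mmp20 to 1.71 FPKM for Mmp9. Timp4 was listed at 0 in most libraries and was not tested.

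Summed by family, matrix protease and inhibitor RNA went down along the NanogN70 course and ended near or above its D0 level with native Nanog. The 4 Timp genes summed to 586 and 586 FPKM in the NanogN70 libraries at D0, 274 and 247 at D7 and 49.9 and 63.7 at D12. With native Nanog they summed to 677 and 632 FPKM at D0, 468 and 459 at D7 and 625 and 579 at D12. At D12 the Mmp genes summed to 76.7 and 85.5 FPKM with NanogN70 and 648 and 453 with native Nanog, and the Adamts genes to 32.6 and 41.9 and 373 and 348. In each family the 2 combinations did not overlap on any day from D3 to D12, and NanogN70 was the lower. The Mmp and Timp sums were also lower in both NanogN70 libraries at D0 and D1. At D0 the Mmp genes summed to 335 and 308 FPKM with NanogN70 and 510 and 366 with native Nanog. The Adamts sum was higher with NanogN70 at D0 (296 and 285 against 253 and 281 FPKM) and overlapped at D1. The ratio of the Timp to the Mmp sum was 1.75 and 1.90 at D0 and 0.651 and 0.745 at D12 with NanogN70, and 1.33 and 1.73 and 0.964 and 1.28 with native Nanog, so in both combinations the D12 libraries lay below the D0 libraries. In mES it was 0.686, from 33.6 FPKM of Timp and 49.0 FPKM of Mmp genes. The established iPSC did not share this low ratio as a group. Their ratios ranged from 0.667 to 3.41, with group means of 1.92 for NanogN70 and 2.00 for native Nanog. Beside them, in the transcript table, MEF was at 1.22 and 1.62 and mES at 0.846. These sums were not tested.

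**Figure D1:**
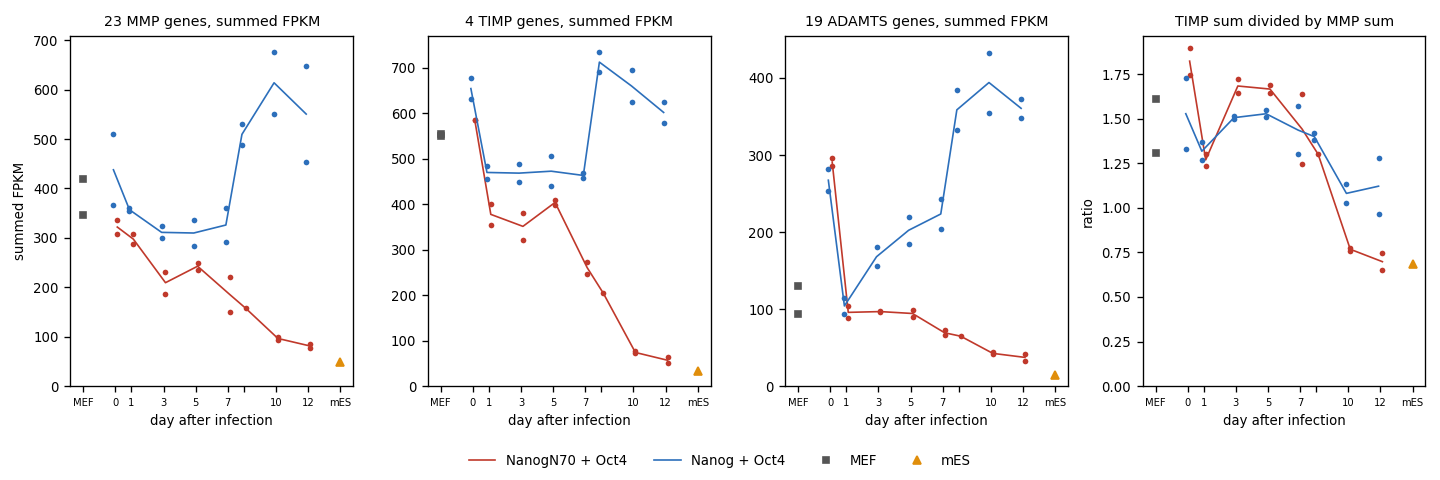
Summed FPKM of the 23 Mmp, 4 Timp and 19 Adamts genes, and the ratio of the Timp to the Mmp sum, against the day after infection. Points are libraries and lines join the means of NanogN70 + Oct4 and Nanog + Oct4, with MEF and mES shown as references. From D3 to D12 each sum was lower in every NanogN70 library than in every native Nanog library of the same day. At D0 and D1 this held for the Mmp and Timp sums.

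The comparison of the combinations day by day asked when the fusion and native Nanog differed in these genes. No member passed the test at D0 or D1, when 0.402% and 0.349% of the 16915 genes tested were called higher with NanogN70 and 0.331% and 0.875% lower (0.733% and 1.22% in either direction). At these days limma gave 8 of the 33 tested members at D0 and 6 at D1 with an unadjusted p under 0.05. Over all 16915 genes tested these counts were 2592 and 2195. Without native Nanog replicate 2 of D0, 4 members were called at D0. Of the genes called at D0, 54.8% were higher, and 67.5% after rescaling to a common total. At D3, Adamts8 was higher and 4 members (Mmp2, Timp2, Adamts2 and Adamts12) were lower (1.23% and 2.41% of all genes tested, 3.64% in either direction), a count of 5 that was 3 without NanogN70 replicate 1 and 8 without native Nanog replicate 1. At D5, 1 was higher and 4 were lower (3.2% and 3.23%, 6.43% together). Rescaled to a common total the D5 count was 8 (2 higher and 6 lower), and with a pseudocount of 0.1 it was 9 (2 and 7), and at D3 each of these gave 8. At D7 1 was higher and 9 were lower (5.76% and 4.6%).

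The number of members called was highest at D10 and D12. At D10, 22 of the 33 tested members were lower with NanogN70 and none was higher, where 12.3% of all genes tested were lower and 15.3% higher (27.6% together). At D12, 20 were lower and none was higher, where 9.91% were lower and 13.4% higher. The median log2 difference of the tested members was -0.44 at D7, -1.64 at D10 and -1.39 at D12, beside 0.08, 0.10 and 0.17 over all genes tested. The 20 members lower at D12 were lower at D10 too, and 8 of them (Mmp2, Mmp3, Mmp16, Timp2, Adamts1, Adamts5, Adamts6 and Adamts12) were lower at D7 already. Mmp2 was the 1 member lower at each of D3, D5 and D7.

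Fibroblast and epithelial markers also differed between the combinations. The 10 fibroblast markers summed to 2188 and 1898 FPKM with NanogN70 and 4394 and 4069 with native Nanog at D7, and to 1034 and 1452 and 5507 and 5006 at D12, with 9 or 10 of the 10 at 1 FPKM or more in each of these libraries and none at 0. The epithelial marker sum was 189.6 and 93.9 FPKM with NanogN70 at D12, all 5 markers being at 1 FPKM or more, and 5.23 and 16.2 with native Nanog. The pluripotent marker sum includes Nanog and Pou5f1 (Oct4), the genes delivered to the cells. It was lower with NanogN70 at D7 (2623 to 3500 FPKM against 5852 to 7768). At D12 it overlapped (1778 to 3008 and 2079 to 3108 FPKM). At D7, 9 of these 10 markers were at 1 FPKM or more with NanogN70 and 3 with native Nanog. The part of these genes in the results for the proteases was not tested.

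**Figure D2:**
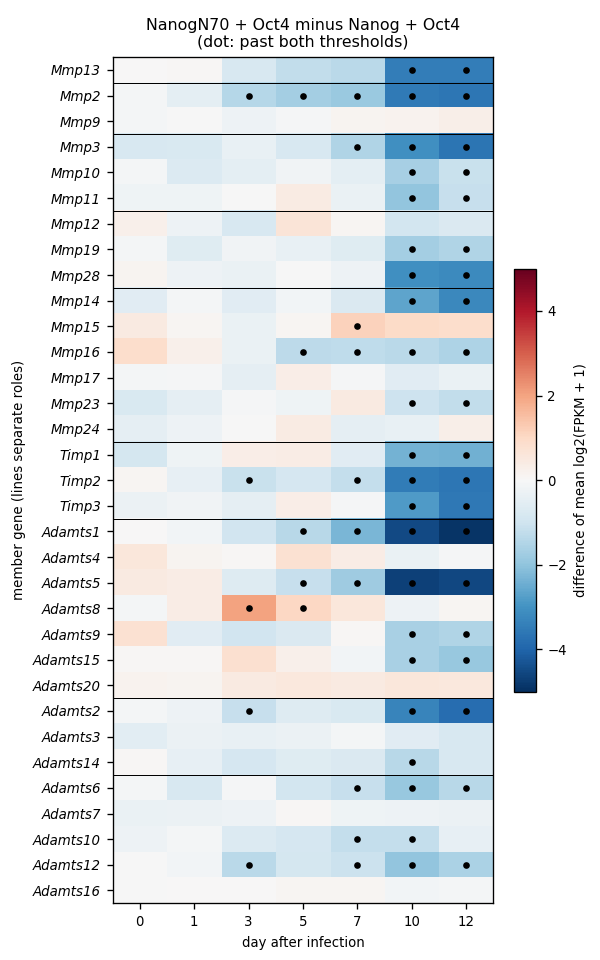
Difference of mean log2(FPKM + 1), NanogN70 + Oct4 minus Nanog + Oct4, for the 33 tested members (rows) on the 7 days with 2 libraries per combination; blue is lower and red higher with NanogN70, and a dot marks a call. No dot stands at D0 or D1, 22 stand at D10 and 20 at D12, all of these for lower levels.

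Mmp2 (chromosome 8, 92827290 to 92853421), the gelatinase of fibroblasts, which cuts denatured and basement membrane collagen, was among the first members to separate. It was at 90.3 and 40.7 FPKM in MEF, and at D0 at 41.8 and 41.3 with NanogN70 and 49.7 and 40.3 with native Nanog. With NanogN70 it stood at 15.5 and 16.5 FPKM at D3, 13.3 and 11.6 at D7 and 7.96 and 10.2 at D12. With native Nanog it stood at 42.9 and 47.1, 47.0 and 48.8 and 132 and 109 FPKM on the same days, without overlap on any of them. The log2 difference was -1.43 at D3 (SE 0.22, adjusted p = 0.000199), -1.71 at D5 (adjusted p = 1.42e-05), -1.86 at D7 (adjusted p = 2.69e-06) and -3.59 at D12 (adjusted p = 1.06e-10). The gene fell from D0 to D7 with NanogN70 (-1.66, adjusted p = 4.52e-06) and rose from D7 to D10 with native Nanog (1.33, adjusted p = 0.00015). In mES it was at 4.68 FPKM. Mmp9, the other gelatinase, was called between the combinations on no day.

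The stromelysins Mmp3 and Mmp10, which cut proteoglycans and can activate other MMP precursors, the collagenase Mmp13 and the macrophage elastase Mmp12 lie together, among 10 Mmp genes in 427072 bases of chromosome 9 (7272514 to 7699585). Several genes of this cluster are textbook targets of AP-1, the Fos and Jun transcription factors. The 120 bases before the start of Mmp3, Mmp10 and Mmp13, each under 1 FPKM at D12 with NanogN70, are therefore shown as given by RefSeq on GRCm38.p6 (mm10), plus strand, 5′ to 3′, with matches to the AP-1 letters TGANTCA in capitals.
Mmp3 (chr9:7445702-7445821): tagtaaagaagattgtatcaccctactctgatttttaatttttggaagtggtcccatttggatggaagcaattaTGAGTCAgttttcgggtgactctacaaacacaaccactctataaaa
Mmp10 (chr9:7502222-7502341): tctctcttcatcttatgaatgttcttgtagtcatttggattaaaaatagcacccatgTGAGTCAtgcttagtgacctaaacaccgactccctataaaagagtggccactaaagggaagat
Mmp13 (chr9:7272394-7272513): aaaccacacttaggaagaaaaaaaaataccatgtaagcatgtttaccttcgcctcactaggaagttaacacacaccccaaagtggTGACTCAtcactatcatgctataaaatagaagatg
The match began 46 bases before the start in Mmp3, 63 in Mmp10 and 35 in Mmp13. For Mmp12 the 250 bases before the gene start held no match, and those before another RefSeq start, inside the gene, held 1. The letters TGANTCA were read on both strands of the 250 bases before each start. They were present in 8 of the 35 promoters given for 32 members, beside 6.75% of all 32851 promoters. The 8 promoters belonged to 8 members, all in the chromosome 9 cluster. The letters GGAATG of TEAD, another transcription factor family, were read too. They were present in 2 of the 35 promoters (Adamts13 and Timp1) and in 12.6% of all promoters. A match of letters is a description and not a bound site.

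Mmp3 (chromosome 9, 7445822 to 7455975) had its maximum at D1 in both combinations. It was at 0.109 and 1.24 FPKM in MEF, and at D0 at 0.820 and 0.613 with NanogN70 and 1.88 and 2.14 with native Nanog. At D1 it was at 33.7 and 42.1 FPKM with NanogN70 and 66.2 and 64.1 with native Nanog, the highest level of any secreted Mmp gene of that day. All 4 D1 libraries lay far above all 4 D0 libraries, a step that was not tested. Between the combinations the D1 libraries did not overlap, but the log2 difference of -0.77 (SE 0.35, adjusted p = 0.339) did not pass the test. At D7 Mmp3 was at 7.63 and 6.86 FPKM with NanogN70 and 21.9 and 22.4 with native Nanog (-1.49, SE 0.35, adjusted p = 0.00296). At D10 it was at 0.150 and 0.113 against 12.0 and 5.85 (-3.06, adjusted p = 3.38e-07). NanogN70 cells thus had nearly no Mmp3 RNA left where native Nanog cells kept a level above that of D0.

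Mmp10, Mmp13 and Mmp12 were at 3 FPKM or less at D0 and then differed in their courses. Mmp10 (chromosome 9, 7502342 to 7510242) was at 0.0355 and 0.0354 FPKM at D0, 2.07 and 3.87 at D7 (a rise of 1.90, adjusted p = 0.00206) and listed at 0 in both libraries of D10 with NanogN70. With native Nanog it was at 4.08 and 4.65 FPKM at D7 and 2.87 and 1.63 at D10. The D10 call was lost without native Nanog replicate 1 (adjusted p = 0.0534), and the D12 call without NanogN70 replicate 1 or 2 (adjusted p = 0.0838 and 0.198) or native Nanog replicate 1 (adjusted p = 0.323), with no filter (adjusted p = 0.0897) and after quantile normalization (adjusted p = 0.0696). Mmp13 (chromosome 9, 7272514 to 7283333), which cuts fibrillar collagen, rose from 0.682 and 1.23 FPKM at D0 to 13.0 and 7.93 at D7 with native Nanog (2.53, adjusted p = 0.00262). At D10 it was at 16.2 and 8.19 FPKM with native Nanog and 0.101 and 0.177 with NanogN70 (-3.46, SE 0.62, adjusted p = 7.77e-05). The MEF libraries were far apart for Mmp13, at 18.6 and 1.48 FPKM, and without MEF replicate 1 the difference of D0 from MEF was -0.34 with NanogN70 (adjusted p = 0.724) and -0.36 with native Nanog (adjusted p = 0.754), so the calls there were lost. A sum of cartilage and bone markers was also unequal, at 109 and 48.7 FPKM in the MEF libraries, and its part was not tested.

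Mmp12 (chromosome 9, 7344397 to 7360461) was at 0 and 0.0170 FPKM in MEF and at D0 at 2.43 and 2.92 with NanogN70 and 1.90 and 2.30 with native Nanog. These levels were above MEF by 1.86 (adjusted p = 0.000658) and 1.62 (adjusted p = 0.00351). The sum of 9 macrophage markers was also higher at D0 than in MEF. It was at 5.85 and 12.1 FPKM in MEF, with Ptprc listed at 0 in replicate 1, and at D0 at 103 and 58.0 in replicates 1 and 2 of NanogN70 and 163 and 55.3 in those of native Nanog, where 4 to 8 of the 9 were at 1 FPKM or more and none at 0. In both combinations Mmp12 was the higher in replicate 2, where the marker sum was the lower. At D5 Mmp12 was at 5.40 and 8.41 FPKM with NanogN70 while the marker sum was at 9.35 and 6.12, with 3 or 4 of the 9 at 1 FPKM or more, Adgre1 at 0 in both libraries and Csf1r and Itgam at 0 in replicate 1. The part of macrophages in the Mmp12 level was not tested on any day. Mmp12 was at 0.107 and 0.0538 FPKM with NanogN70 at D10 (a fall from D7 of -2.13, adjusted p = 0.000103). It shares 157 exonic bases with Mmp1b on the other strand, and whether counting used strand is not stated.

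Mmp28, or epilysin (chromosome 11, 83440768 to 83463040), rose in both combinations and then parted. It was at 4.66 and 4.64 FPKM with NanogN70 and 3.81 and 4.45 with native Nanog at D0, and at 25.2 and 24.0 and 23.8 and 26.4 at D5. At D10 it was at 8.61 and 6.89 with NanogN70 and 79.4 and 63.7 with native Nanog. The combinations overlapped at D5, the log2 difference at D7 was -0.25 (adjusted p = 0.424), and that at D10 was -3.05 (SE 0.21, adjusted p = 5.29e-10). With NanogN70 the gene rose from D0 to D7 (2.06, adjusted p = 1.14e-07) and fell from D7 to D10 (-1.43, adjusted p = 1.8e-05). With native Nanog it rose in both intervals (2.45, adjusted p = 8.82e-09, and 1.37, adjusted p = 5.49e-05). It shares 466 exonic bases with 1700020L24Rik on the other strand.

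Mmp11 and Mmp19 complete the secreted members with values. Mmp11, or stromelysin 3 (chromosome 10, 75923221 to 75932502), was the most abundant secreted Mmp gene of mES, at 11.9 FPKM, and by the group mean of NanogN70 cells at D12, at 13.9 and 9.71, where Mmp2 was higher in replicate 2. At D10 it was at 10.7 and 8.31 FPKM with NanogN70 and 56.4 and 28.9 with native Nanog (-1.99, adjusted p = 6.22e-05). The D12 difference of -1.15 (adjusted p = 0.00968) was not called without NanogN70 replicate 2 (-0.91, adjusted p = 0.0969) or native Nanog replicate 1 (-0.77, adjusted p = 0.146). Mmp19, which cuts basement membrane proteins, was at 2.69 and 2.89 FPKM with NanogN70 and 11.0 and 8.36 with native Nanog at D12 (-1.49, adjusted p = 1.12e-06). Mmp11 shares 155 exonic bases with Chchd10 and Mmp19 789 with Tmem198b, both on the other strand.

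**Figure D3:**
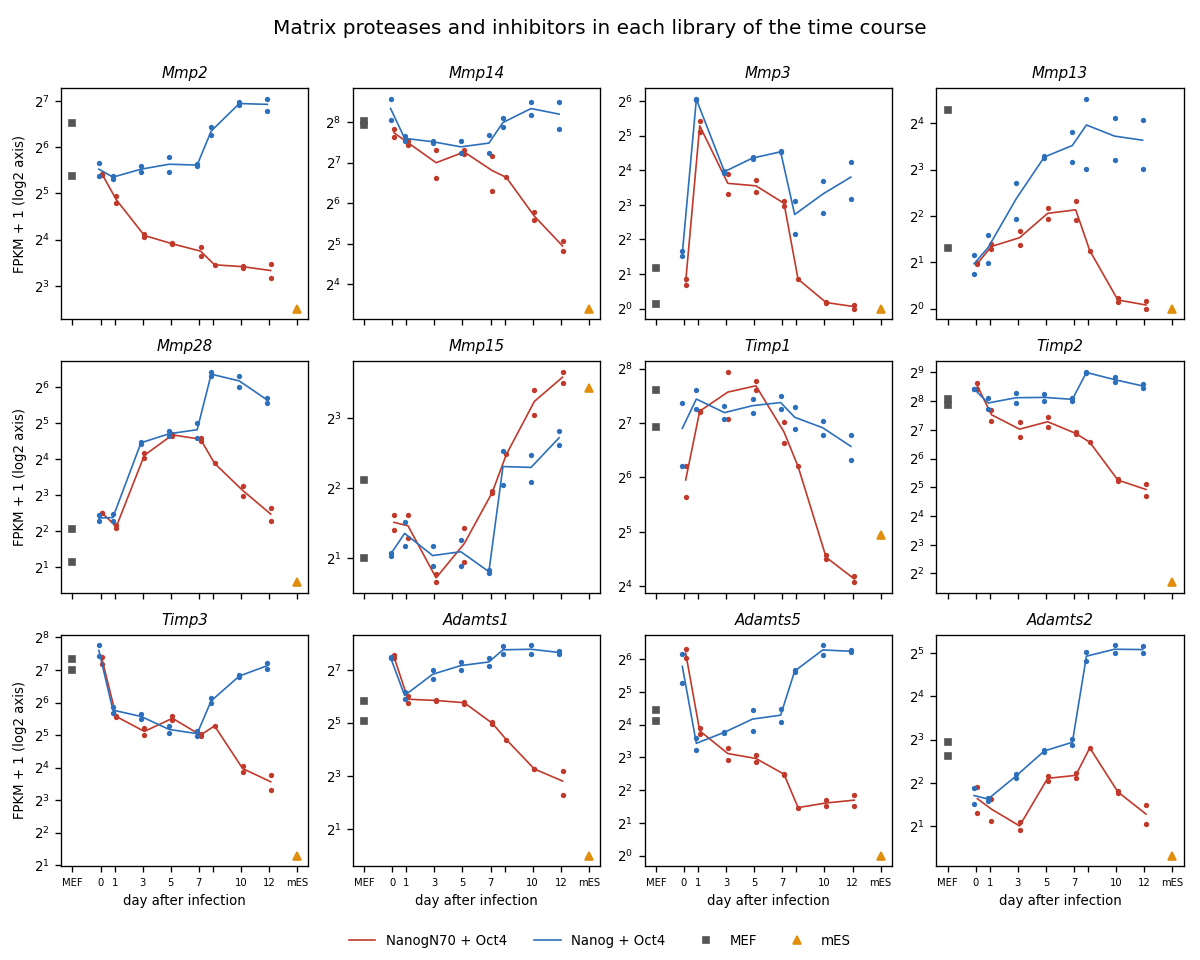
FPKM + 1 on a log2 axis for 12 members against the day after infection; points are libraries and lines join group means of NanogN70 + Oct4 and Nanog + Oct4, with the 2 MEF libraries and mES as references. Mmp2 separated at D3, Mmp3 was highest at D1 in both combinations, Mmp28 and Timp3 separated after D7, and Mmp15 ended at 10.4 and 11.7 FPKM with NanogN70 and 6.07 and 5.14 with native Nanog.

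Mmp14 (chromosome 14, 54431598 to 54442456), the collagenase of the cell surface and activator of proMMP2, was the most abundant membrane-anchored member of both combinations at D0 and of NanogN70 cells at D12. It was at 244 and 258 FPKM in MEF, 226 and 199 with NanogN70 and 382 and 262 with native Nanog at D0, and 143 and 77.9 and 205 and 151 at D7. The D7 difference of -0.73 (adjusted p = 0.0469) was under the limit of 1, and without NanogN70 replicate 1 it was -1.16 (adjusted p = 0.00573). At D12 Mmp14 was at 27.4 and 32.3 FPKM with NanogN70 and 357 and 228 with native Nanog (-3.22, SE 0.27, adjusted p = 5.14e-09). In mES it was at 9.55 FPKM, below both NanogN70 libraries of D12.

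Mmp16 (chromosome 4, 17853072 to 18117479), another membrane MMP that can activate proMMP2, was higher at D0 than in MEF in both combinations. It was at 3.42 and 2.07 FPKM in MEF, 19.95 and 20.65 with NanogN70 (2.53, adjusted p = 2.04e-05) and 7.44 and 14.9 with native Nanog (1.66, adjusted p = 0.00233, or 0.0934 in a fit to these groups alone). At D7 it was at 3.13 and 4.51 and 10.4 and 10.6 FPKM (-1.27, adjusted p = 0.0108), and that call was lost without NanogN70 replicate 1 or native Nanog replicate 1 or 2 (adjusted p = 0.0919, 0.0541 and 0.0531). At D12 it was at 0.858 and 2.47 FPKM with NanogN70 and 5.54 and 7.30 with native Nanog (-1.54, adjusted p = 0.00122).

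Mmp15 (chromosome 8, 95352296 to 95374293), also a membrane MMP, went the other way. With NanogN70 it was at 2.07 and 1.65 FPKM at D0, 2.88 and 2.80 at D7 and 10.4 and 11.7 at D12, beside 9.80 in mES. With native Nanog it was at 1.11 and 1.05, 0.774 and 0.731 and 6.07 and 5.14 FPKM. From D0 to D12 it rose in both (2.08, adjusted p = 1.31e-06, and 1.66, adjusted p = 5.39e-05). It was higher with NanogN70 at D7 (1.13, SE 0.27, adjusted p = 0.00336). The libraries did not overlap at D10 or D12 either, but the differences of 0.95 (adjusted p = 0.00559) and 0.87 (adjusted p = 0.0113) were under the limit of 1. The D10 difference was 1.12 without NanogN70 replicate 1 and 1.14 without native Nanog replicate 2. In the 12 established iPSC libraries Mmp15 was only between 1.48 and 4.38 FPKM. Beside them MEF was at 3.04 and 0.950 and mES at 8.58.

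Mmp23, Mmp24 and Mmp17, the remaining membrane members with values, were less abundant than Mmp14 in both combinations. Mmp23 was at 8.51 and 7.52 FPKM with NanogN70 and 18.3 and 11.3 with native Nanog at D0 and fell to D7 in both (-2.41, adjusted p = 6.34e-08, and -3.65, adjusted p = 1.39e-10). It was at 0.569 and 0.926 and 3.09 and 3.12 FPKM at D12 (-1.24, adjusted p = 0.000189). Mmp24 rose from 2.34 and 1.84 FPKM at D0 to 5.71 and 6.79 at D12 with NanogN70 (1.23, adjusted p = 0.000617), a change of 0.75 and no call after quantile normalization. Mmp24 shares 637 exonic bases with BC029722 on the other strand. The MEF libraries were at 2.73 and 2.23 FPKM of Mmp24 in the gene table. In the transcript table summed by symbol the same libraries were at 0.0307 and 0.00637. The level and the rise of Mmp24 are therefore uncertain. Mmp17, a GPI-anchored member, was at 2.16 and 2.59 FPKM with NanogN70 and 3.61 and 3.00 with native Nanog at D12 and was called on no day.

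Timp2 (chromosome 11, 118301061 to 118355411) was the most abundant inhibitor of both combinations at D0. It was at 268 and 234 FPKM in MEF, 344 and 391 with NanogN70 and 340.2 and 344 with native Nanog at D0, and 114 and 119 and 256 and 277 at D7. At D12 it was at 25.2 and 33.5 FPKM with NanogN70, 385 and 352 with native Nanog and 2.24 in mES. The log2 difference was -1.19 at D7 (SE 0.19, adjusted p = 8.18e-05) and -3.62 at D12 (adjusted p = 1.23e-11), with no overlap at either day. That at D3, -1.11 (adjusted p = 0.000538), was -0.85 without NanogN70 replicate 1 and -0.95 without native Nanog replicate 2, under the limit of 1, and its adjusted p was 0.108 in a fit to these groups alone. From D0 to D12 Timp2 fell with NanogN70 (-3.61, adjusted p = 4.01e-12), and with native Nanog the difference was 0.10 (adjusted p = 0.711).

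Timp3 (chromosome 10, 86300412 to 86349505), the inhibitor that stays bound to the matrix, fell in both combinations before they separated. It was at 169 and 145 FPKM with NanogN70 and 172 and 215 with native Nanog at D0, and at 31.9 and 30.1 and 33.9 and 30.1 at D7, where the libraries overlapped. The falls from D0 to D7 were -2.30 (adjusted p = 5.17e-10) and -2.56 (adjusted p = 1.02e-10). At D10 it was at 15.7 and 13.6 FPKM with NanogN70 and had risen to 109 and 114 with native Nanog (1.77, adjusted p = 7.99e-08). At D12 the combinations differed by -3.59 (SE 0.16, adjusted p = 1.61e-12), at 8.85 and 12.8 against 131 and 148 FPKM. With native Nanog D12 against D0 was -0.46 (adjusted p = 0.0289), under the limit of 1. Timp3 shares 1733 exonic bases with Syn3 on the other strand.

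Timp1 (chromosome X, 20870166 to 20874737), a soluble inhibitor that growth factors induce, was called between the combinations at D10 and D12 alone, as was Timp3, and was the main Timp gene of mES. It was at 121 and 193 FPKM in MEF, and at D7 at 128 and 97.7 with NanogN70 and 178 and 152 with native Nanog (-0.55, adjusted p = 0.226, no call). With NanogN70 it fell to 22.6 and 21.5 FPKM at D10 (-2.29, adjusted p = 9.77e-06) and was at 15.8 and 17.2 at D12, against 109 and 78.7 with native Nanog (-2.42, SE 0.32, adjusted p = 2.76e-06). In mES Timp1 was at 29.8 FPKM, above both NanogN70 libraries of D12, while Timp2 and Timp3 were at 2.24 and 1.46. Timp1 lies within the span of Syn1 but shares no exonic base with it.

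Adamts1 (chromosome 16, 85793827 to 85803113) and Adamts5 (chromosome 16, 85858157 to 85901125), neighbouring proteoglycanases that cut versican and aggrecan, had the largest differences of the tested members at D10 and D12. Adamts1 was at 55.2 and 32.6 FPKM in MEF and rose to D0 in both combinations, to 187 and 171 with NanogN70 (2.05, adjusted p = 1.88e-06) and 179 and 171 with native Nanog (2.02, adjusted p = 4.13e-06). It was at 63.8 and 53.3 and 58.8 and 70.7 FPKM at D1, where the libraries overlapped. The courses then parted, with 31.9 and 29.9 FPKM against 172 and 140.3 at D7 and 3.98 and 8.17 against 206 and 195 at D12. The log2 difference was -1.39 at D5 (adjusted p = 0.000285), -2.30 at D7 (SE 0.24, adjusted p = 3.79e-07) and -4.90 at D12 (adjusted p = 3.58e-12). With native Nanog D12 against D0 was 0.19 (adjusted p = 0.57). In mES the gene was at 0.0141 FPKM.

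Adamts5 was at 20.7 and 16.4 FPKM in MEF, 64.6 and 78.8 with NanogN70 and 37.3 and 70.6 with native Nanog at D0, and 12.1 and 13.9 and 8.39 and 11.1 at D1. It was at 4.54 and 4.66 FPKM with NanogN70 and 21.2 and 15.9 with native Nanog at D7 (-1.79, SE 0.25, adjusted p = 1.35e-05). At D12 it was at 1.88 and 2.58 against 76.5 and 72.8 (-4.56, adjusted p = 1.52e-11), and it was listed at 0 in mES. After lower levels at D1 in both combinations it came back to its D0 level or above with native Nanog, rising from D7 to D10 (2.00, adjusted p = 3.81e-06). Its D12 level with native Nanog differed from D0 by 0.53 (adjusted p = 0.097).

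Adamts8 (chromosome 9, 30942562 to 30963838), which can cut aggrecan, was the 1 member higher with NanogN70 at D3 and at D5. At D3 it was at 5.20 and 3.56 FPKM with NanogN70 and 0.201 and 0.480 with native Nanog (2.00, SE 0.21, adjusted p = 2.08e-06). The D5 difference was 1.03 (adjusted p = 0.00168), and it was under the limit of 1 without NanogN70 replicate 2 (0.91) and after quantile normalization (0.96). At D7 it was at 1.45 and 0.880 and 0.397 and 0.494 FPKM (0.57, adjusted p = 0.0497, under the limit). The gene shares 489 exonic bases with Gm29724 on the other strand.

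Adamts9, Adamts15 and Adamts4 are further proteoglycanases. Adamts9 (chromosome 6, 92772699 to 92944450), which cuts versican, was at 8.85 and 7.68 FPKM at D0, 0.397 and 0.469 at D3 and 2.44 and 2.67 at D12 with NanogN70, against 8.41 and 9.63 at D12 with native Nanog (-1.49, adjusted p = 7.44e-06). In mES it was at 7.21 FPKM, the most abundant Adamts gene there. Adamts9 shares 1381 exonic bases with A730049H05Rik on the other strand. Adamts15, a neighbour of Adamts8, rose from 0.0420 and 0.158 FPKM at D0 to 8.85 and 6.80 at D12 with native Nanog (3.00, adjusted p = 3.06e-07) and was at 1.14 and 1.65 with NanogN70 (a difference of -1.88, adjusted p = 6.43e-05). Adamts4 was at 7.15 and 8.81 FPKM with NanogN70 and 10.5 and 6.54 with native Nanog at D12, which overlapped, and was called on no day. It was the most abundant Adamts gene in both NanogN70 libraries of D12 and by the group mean at D10, where Adamts1 was higher in replicate 2 (9.96 and 8.67 FPKM of Adamts4 and 8.57 and 8.76 of Adamts1). Adamts1 led in both libraries at D0.

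The procollagen N-proteinases remove the amino-terminal propeptides of fibrillar procollagens. Adamts2 (chromosome 11, 50602085 to 50807573), the best known of them, was at 6.64 and 5.17 FPKM in MEF, and at D0 at 2.74 and 1.45 with NanogN70 and 2.69 and 1.83 with native Nanog. With native Nanog it rose from 7.02 and 6.29 FPKM at D7 to 35.2 and 30.8 at D10 (2.15, SE 0.20, adjusted p = 1.15e-07). At D12 it was at 1.05 and 1.79 FPKM with NanogN70 and 34.9 and 30.8 with native Nanog (-3.82, SE 0.20, adjusted p = 1.24e-11). At D3 the difference was -1.16 (adjusted p = 0.000625, or 0.057 in a fit to these groups alone). Adamts14 was at 0.909 and 1.16 FPKM with NanogN70 and 5.13 and 3.60 with native Nanog at D10 (-1.39, adjusted p = 0.00014).

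Of the other Adamts members, Adamts6 was at 1.12 and 1.13 FPKM with NanogN70 and 4.01 and 5.16 with native Nanog at D12 (-1.39, adjusted p = 3.88e-05). Its D7 difference of -1.15 (adjusted p = 0.000678) was -0.82 without NanogN70 replicate 1 and -0.98 without native Nanog replicate 2, under the limit of 1. Adamts12, which can cut cartilage oligomeric matrix protein, was at 2.26 and 4.47 FPKM with NanogN70 and 9.81 and 9.92 with native Nanog at D3 (-1.36, adjusted p = 0.00271), a call lost without NanogN70 replicate 1 (-0.99, adjusted p = 0.0743) and in a fit to these groups alone (adjusted p = 0.0821). The D7 call was lost without NanogN70 replicate 2 (adjusted p = 0.05). At D12 it was at 0.513 and 0.817 and 3.86 and 3.94 FPKM (-1.56, adjusted p = 9.35e-05). Adamts10, which binds fibrillin, was at 2.198 and 2.424 FPKM with NanogN70 and 6.72 and 6.56 with native Nanog at D7 (-1.21, adjusted p = 0.000798). Adamts7 was at 6.03 and 5.83 and 7.76 and 7.14 FPKM at D12 and was called on no day.

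Within each combination, more of the tested members fell than rose with NanogN70, and with native Nanog more rose than fell. From D0 to D7, 4 of the 33 tested members rose and 11 fell with NanogN70 (12.6% and 6.08% of all genes tested), and 7 rose and 4 fell with native Nanog (11.9% and 5.67%). From D7 to D10, 1 rose and 11 fell with NanogN70 (7.94% and 7.73%), and 10 rose and 2 fell with native Nanog (5.6% and 4.55%). From D0 to D12, 3 rose and 14 fell with NanogN70 (24.5% and 10.1%), and 7 rose and 2 fell with native Nanog (12.1% and 3.93%), the latter being Mmp23 and Mmp9, named here after its value was seen. The change itself, by the interaction test of NanogN70 minus native Nanog, was higher for 1 member and lower for 6 for D7 against D0 (5.11% and 4.75%, 9.86% together) and higher for none and lower for 17 for D12 against D0 (13.3% and 10.4%). The intervals to D7 and to D12 share the D0 libraries.

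These interval counts depended in part on the scaling. Among all genes called from D0 to D7, 67.5% rose with NanogN70 and 67.8% with native Nanog, and 49.5% and 55.2% after quantile normalization, where 4 members rose and 11 fell with NanogN70 and 6 rose and 5 fell with native Nanog. From D0 to D12 the shares were 70.7% and 75.5%, and 50.9% and 57.5% after that scaling, where 1 member rose and 17 fell with NanogN70 and 7 rose and 4 fell with native Nanog. It moved the median log2 difference of all genes from 0.34 to 0.01 for D12 against D0 with NanogN70.

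The comparison of D0 with MEF covered the infection together with the factors it brought in and the time in culture, which cannot be told apart here. With NanogN70, 5 of the 33 tested members were higher and 4 lower than in MEF (5.82% and 5.61% of all genes tested), and with native Nanog 4 were higher and 3 lower (3.69% and 3.15%, 6.84% together), against the same 2 MEF libraries. Adamts1, Adamts5, Mmp12 and Mmp16 were the higher ones in both, and Adamts9 was called with NanogN70 (1.61, adjusted p = 9.92e-06), though not between the combinations at D0. The Adamts5 difference with native Nanog, 1.43 (adjusted p = 0.00031), was 0.98 without native Nanog replicate 2, and its adjusted p was 0.115 in a fit to these groups alone. Adamts2, Adamts14 and Mmp13 were the lower ones in both, and Timp1 with NanogN70. The Adamts2 difference was under the limit of 1 without NanogN70 replicate 2 (-0.88) and, with native Nanog, without MEF replicate 1 (-0.93) or native Nanog replicate 2 (-0.90), and the Timp1 call was lost without MEF replicate 2 (adjusted p = 0.0644) or NanogN70 replicate 2 (adjusted p = 0.0616). Among all genes called with native Nanog, 54.0% were higher, and 41.7% after rescaling to a common total, where 5 members were higher and 4 lower.

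The wider protease network was read from 36 genes in 6 lists, of which 34 were tested. The lists were set by known role, with earlier results of these data known. At D7, 2 were higher and 5 lower with NanogN70, where 5.76% and 4.6% of all genes tested were. The counts were 3 and 23 at D10, where the shares of all genes were 15.3% and 12.3%, and 2 and 22 at D12, where they were 13.4% and 9.91%. Of 6 genes of plasminogen activation, 2 were lower at D7, namely the urokinase Plau at 6.70 against 17.5 FPKM in the group means (-1.26, adjusted p = 0.00708) and the inhibitor Serpine2 at 44.3 against 150.5 (-1.72, adjusted p = 0.000155). At D12, 4 of the 6 were lower, with Serpine2 at -2.47, Plau at -2.08 and Plat, the tissue plasminogen activator, at -1.59. All 9 tested genes of the list of other matrix proteases were lower at D12, beside 9.91% of all genes. Among them the secreted serine protease Htra1 was at 25.1 against 434 FPKM (-4.05, adjusted p = 1.02e-11), the collagen-cutting cathepsin Ctsk at 2.13 against 19.8 (-2.69) and the lysosomal protease Ctsb at 55.4 against 363 (-2.68). Htra1 was lower at D7 already (-1.36, adjusted p = 5.43e-05). Of the ADAMTS-like proteins, which lack the protease domain, 4 of 4 tested were lower at D12, Adamtsl1 by the most (-2.32, against -1.40 at D7), and then Adamtsl4 (-1.54) and Adamtsl5 (-1.26).

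Some genes of these lists were higher with NanogN70 than with native Nanog. Of 7 ADAM sheddases, 1 was higher and 3 were lower at D12, with Adam19 at 30.1 against 6.10 FPKM (2.15, adjusted p = 2.06e-07), Adam12 at 1.38 against 13.6 (-2.64) and Adam9 at 15.7 against 42.6 (-1.38). At D7 the Adam19 difference was 1.03 (adjusted p = 0.00216), just under the limit of 1 without native Nanog replicate 1 (adjusted p = 0.022) and at 0.97 after quantile normalization. A list of 4 genes held the convertases Furin, Pcsk5 and Pcsk6, and Bsg. Of these, Pcsk6 was higher (2.03, adjusted p = 7.8e-08) and Pcsk5 lower (-1.15, adjusted p = 2.39e-06) at D12. Of 4 other inhibitors, A2m, which traps proteases of many kinds, was higher at D7 at 15.9 against 3.15 FPKM (1.99, adjusted p = 6.49e-07), and was not called at D12 (3.08 against 3.00 FPKM, 0.02, adjusted p = 0.959). Reck, a membrane-anchored inhibitor of MMPs, was lower at D7 (-1.02) and D12 (-1.01), but the calls were lost without NanogN70 replicate 1 (-0.72) or native Nanog replicate 2 (-0.89) of D7, and without NanogN70 replicate 2 (-0.94) or native Nanog replicate 2 (-0.69) of D12.

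In established iPSC the comparison with MEF asked what level the network came to. Of 24 members tested, 17 were lower than in MEF and 1 was higher, where 18.8% of the 13312 genes tested were lower and 21.9% higher, and without sample 9 20 members were called in place of 18. The median log2 difference was -2.33 over the members and 0.22 over all genes tested. Mmp14 was between 1.61 and 55.5 FPKM, with a median of 7.10, in the 12 iPSC libraries and at 228 and 248 in MEF (-4.74, SE 0.72, adjusted p = 6.97e-05, and -4.97 without sample 9). Adamts6 was between 0 and 0.219 FPKM in iPSC and at 6.47 and 6.36 in MEF (-2.84, SE 0.12, adjusted p = 1.19e-09, and -2.86 without sample 9). None of the iPSC libraries reached the MEF level of either gene. Mmp13 was lower too (-2.42, adjusted p = 0.00191), but not without MEF replicate 1 (-0.96, adjusted p = 0.119).

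Adamts8 and Adamts9 lay above MEF. Adamts8 was between 0.509 and 2.29 FPKM in the iPSC, with a median of 1.66, and at 0.214 and 0 in MEF (1.26, SE 0.24, adjusted p = 0.000423, and 1.25 without sample 9). Adamts9 was between 4.60 and 9.21 FPKM, with a median of 5.40, at 3.01 and 1.97 in MEF and at 8.30 in mES. The iPSC did not overlap MEF for either gene. The Adamts9 difference of 0.97 (adjusted p = 0.000869) was under the limit of 1, and it was 1.00 without sample 9, 1.19 without MEF replicate 1 and 1.08 after quantile normalization, past the limit.

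Of the inhibitors, Timp1 had the highest median level of all members in the iPSC. It was between 24.1 and 82.7 FPKM, with a median of 37.4, beside 36.3 in mES and 152 and 245 in MEF (-2.22, SE 0.36, adjusted p = 0.000122, and -2.30 without sample 9). Timp2 ranged from 0.138 to 172 FPKM with a median of 3.10, against 223 and 201 in MEF (-5.27, SE 1.27, adjusted p = 0.00234, and -5.59 without sample 9). Timp3 ranged from 0.268 to 108 FPKM with a median of 1.72, against 127 and 104 in MEF (-4.62, adjusted p = 0.00316, and -5.00 without sample 9).

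Sample 9 of NanogN70 iPSC1 set the upper end of most of these ranges. Of 17 members with a MEF mean of at least 5 FPKM in this table, it was the highest of the 12 iPSC libraries for 13. It held 172 FPKM of Timp2, 108 of Timp3, 55.5 of Mmp14, 24.3 of Mmp2 and 8.13 of Adamts1, where the other 11 reached at most 54.8, 33.2, 20.7, 6.50 and 3.48. The fibroblast markers moved with it, with 9 of 10 at 1 FPKM or more and none at 0 in sample 9, and their part in these levels was not tested.

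Between the 2 kinds of iPSC, limma called 0 of the 19 members tested and 0 of 12456 genes, while 201 genes, no member among them, had an unadjusted p under 0.05. With sample 9 left out, or with samples 1# and 1#-2, whose labels both begin with 1#, averaged, 0 members were called as well. The column headers give iPSC1 and iPSC2 unequal passage numbers, and an effect of the line cannot be told apart from one of passage.

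**Figure D4:**
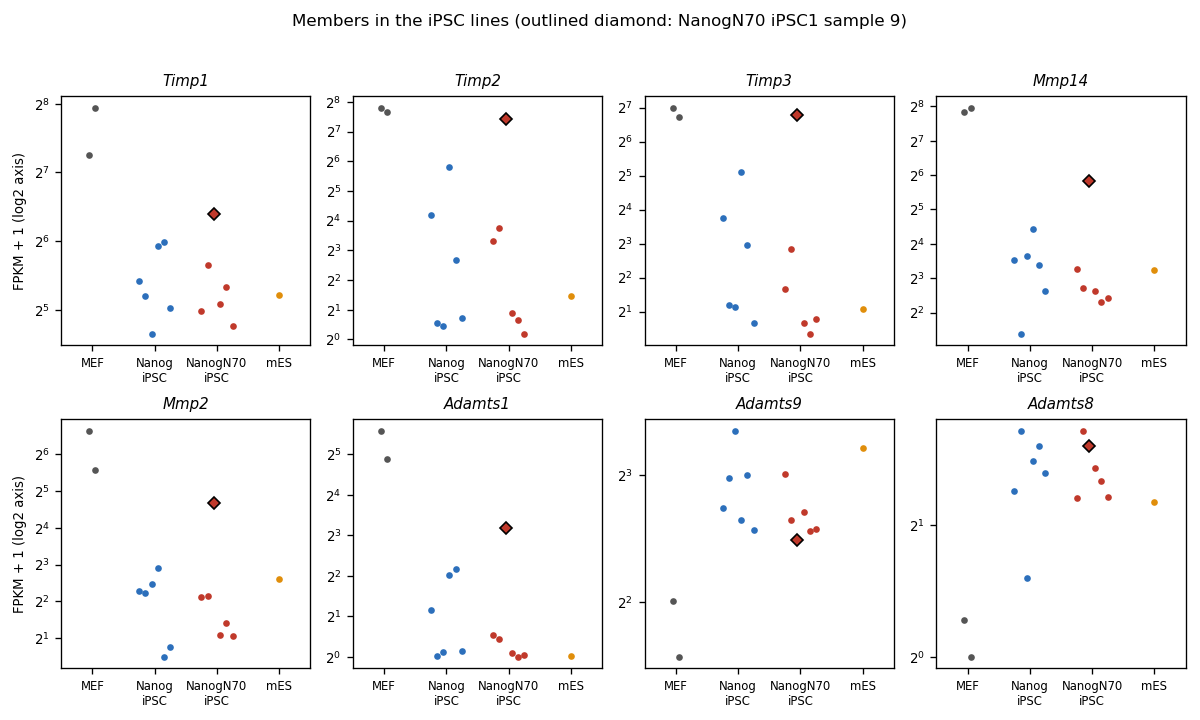
FPKM + 1 on a log2 axis for 8 members in the 2 MEF, 6 Nanog iPSC, 6 NanogN70 iPSC and 1 mES libraries of the transcript table, 1 point per library, with NanogN70 iPSC1 sample 9 as a diamond. Timp1, Timp2, Timp3, Mmp14, Mmp2 and Adamts1 were highest among the iPSC in sample 9, and all 12 iPSC libraries lay above both MEF libraries for Adamts8 and Adamts9.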

How the data were processed

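RNA-seq was analysed from a gene table (31 time-course, 2 MEF and 1 mES library) and a transcript table (12 iPSC, 2 MEF and 1 mES library). By the methods of the study, reads were trimmed by the authors with Trim Galore (version 0.6.4), aligned to mm10 with HISAT2 (2.2.1) and quantified with StringTie (2.2.1). The deposited values are FPKM with replicates kept apart. The annotation and the use of strand are not stated, and the labels and the methods name different library kits, so overlapping genes are uncertain. No test for counts was applied, since these are FPKM. Absolute depth is unknown, and relative depth came from the steps of low values in the gene table. The transcript table gave none, and its depth is unknown.

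Transcripts were summed by symbol. Genes that reached 1 FPKM in 2 or more of the libraries compared were tested on log2(FPKM + 1) with limma (3.58.1, R 4.3.3; eBayes with trend, two-sided), with 1 mean per combination and day and MEF, and mES was left out as a single library. D8 was in the fit but not compared. The iPSC fit had the line as covariate. Calls needed a Benjamini-Hochberg adjusted p under 0.05 over all genes tested and a log2 difference of 1 or more in either direction. Coordinates and promoters are those of RefSeq on GRCm38.p6 (mm10), and 32 of the 46 members matched a promoter. Gene strand and exonic overlaps are those of GENCODE vM21 on GRCm38. Python 3.11.15 with pandas 2.3.3, numpy 2.4.6 and matplotlib 3.10.9 was used. The script for the fit was tested on simulated data.

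Named with values were the Timp genes, members with a group mean of 5 FPKM or more and members called between the combinations, and up to 3 called genes per list of the wider network at D7 and D12. The members and lists were chosen with earlier results of these data known. Alternatives were quantile normalization, a pseudocount of 0.1, rescaling to TPM, testing without the filter, a fit to the compared groups alone, the replicate number as a block, leaving out each library in turn and, for the iPSC, sample 9 left out, samples 1# and 1#-2 averaged and no covariate. A fit without the libraries of D8 to D12 was added after seeing the data. Protein sequences were not used here.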

Additional observations from a re-analysis of the deposited data

Results flagged for a closer look

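In the established iPSC, 15 of 39 pairs of a member and a combination had 1 library far from the other 5. In each case it was the highest. The limit flags about 1 in 20 groups of normal values, a shape not tested for these FPKM levels. The rate by chance is therefore not known here. Of the 15, 11 were NanogN70 iPSC1 sample 9. Its gap to the nearest of the other libraries, as a share of the range over the 6, was 0.809 for Mmp13, 0.901 for Mmp2, 0.634 for Mmp19, 0.911 for Mmp14, 0.685 for Mmp23, 0.929 for Timp2 and 0.945 for Timp3 among the Mmp and Timp genes, and 0.945 for Adamts1, 0.970 for Adamts5, 0.804 for Adamts2 and 0.921 for Adamts12 among the Adamts genes. The pairs share this 1 library and are not independent. For native Nanog, iPSC1 sample 3 stood apart, with a gap of 0.690 for Timp2, 0.636 for Timp3, 0.652 for Adamts5 and 0.717 for Adamts12.

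The change from D0 to D7 differed between the combinations in 7 members, by the interaction test of limma. NanogN70 minus native Nanog was -1.76 for Mmp2, -2.14 for Mmp16, 1.24 for Mmp23, -1.29 for Timp2, -2.33 for Adamts1, -2.26 for Adamts5 and -1.07 for Adamts6 on the log2 scale. The Adamts6 call was lost without any of NanogN70 replicate 1 or 2 of D0, NanogN70 replicate 1 of D7, native Nanog replicate 1 of D0 and native Nanog replicate 2 of D7 (adjusted p = 0.0596 to 0.167). The Mmp23 call was lost without NanogN70 replicate 2 of D0, NanogN70 replicate 1 of D7, native Nanog replicate 1 of D0 or native Nanog replicate 2 of D7 (adjusted p = 0.0584 to 0.0911). In a fit to the compared groups alone the Adamts6 and Mmp23 calls were lost too (adjusted p = 0.133 and 0.0834). With a pseudocount of 0.1 the Mmp23 call was also lost (adjusted p = 0.0637). Mmp23 had the opposite sign to the other 6, since it fell in both combinations and further with native Nanog.

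The change from D0 to D12 differed in 17 members, all of them lower with NanogN70. Among Mmp genes the difference of changes was -3.48 for Mmp13, -3.49 for Mmp2, -2.83 for Mmp3, -1.38 for Mmp19, -3.33 for Mmp28, -2.64 for Mmp14 and -2.41 for Mmp16. Among Timp genes it was -1.56 for Timp1, -3.72 for Timp2 and -3.29 for Timp3, and among Adamts genes -4.93 for Adamts1, -5.02 for Adamts5, -2.26 for Adamts9, -1.93 for Adamts15, -3.73 for Adamts2, -1.31 for Adamts6 and -1.56 for Adamts12. The Timp1 call was lost without NanogN70 replicate 1 of D0, native Nanog replicate 2 of D0 or native Nanog replicate 1 of D12 (adjusted p = 0.0524 to 0.0735). In a fit to the compared groups alone the Timp1 call was lost as well (adjusted p = 0.066). The native Nanog libraries of D12 were also the deeper, and the part of depth was not tested.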

How the results depend on the processing

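Of 195 called pairs of a member named with values and a comparison, 154 were called under every alternative run for them and 41 lost the call in at least 1. None of the 2072 recomputed values of these pairs changed sign, and 96 were no longer called. Genes of the wider network were not in these counts. With a pseudocount of 0.1 the members called were 12 in place of 7 for native Nanog D0 against MEF, 15 in place of 9 for native Nanog D12 against D0, 1 in place of 0 between the combinations at D1, 8 in place of 5 at D3 and 9 in place of 5 at D5. Rescaling to a common total gave 8 at D3 and 8 at D5. A fit to the compared groups alone gave 2 for native Nanog D0 against MEF and 2 at D3. Leaving out each library in turn gave 0 to 4 at D0, with 4 without native Nanog replicate 2, and 3 to 8 at D3. The cause was not tested for any of these. The fit without D8 to D12, chosen after seeing the data, changed no call of a single member up to D7. Absolute depth is unknown, and levels well under 1 FPKM were not resolved here.

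The labels tie the replicate numbers to no shared batch or culture. The correlation of same-numbered deviations was 0.121 to 0.394 at D0, D1, D7 and D10 and -0.0639 to 0.0176 at D3, D5 and D12, so the samples were not treated as paired. With the replicate block, the members called were as many as without it in every comparison of the time course (0 at D0 and D1, 5 at D3 and D5, 10 at D7, 22 at D10 and 20 at D12) except native Nanog D12 against D0, where they were 10 in place of 9.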
